A study of Arabidopsis thaliana with 8 samples.

Results

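The chloroplast NDH complex is an NAD(P)H dehydrogenase-like enzyme of the thylakoid membrane. It passes electrons from ferredoxin to plastoquinone, in cyclic electron flow around photosystem I in the light and in chlororespiration in the dark. Described here are 5 nuclear genes linked to this complex or to thylakoid electron transfer: the NDH subunit genes NdhS (AT4G23890) and NdhN (AT5G58260), PIFI (AT3G15840), a gene of chlororespiration, the PsbP-like gene AT1G76450 and the rubredoxin-like gene AT1G54500. They were taken from probes whose platform annotation, joined by probe number and not checked here against probe sequences, names only that gene, which gave 5 probes, 1 per gene, among 692 probes that name a single gene (691 genes) and 3439 probes in all. The genes were chosen by their function with the intensities of the leaf and root arrays in view, so the contrast of root with leaf is given for them as a description, without p-values.

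The arrays carried total RNA from roots (4 arrays) and from leaves (4 arrays) of wild-type Arabidopsis thaliana, ecotype Columbia 0, and the labels name the contrast of root with leaf as the purpose. The labels used here do not state plant age, growth conditions, pooling or whether the 4 arrays of a tissue came from separate plants. The spread between arrays may thus be technical, and the p-values below would then not cover the spread between plants. Each probe has a relative intensity between 0 and a ceiling just below 100. The summed intensity was 3479 and 3505 on root replicates 1 and 2, against 2868 and 2923 on root replicates 3 and 4. In leaf it was 3400 and 3426 on replicates 1 and 2, against 3021 and 3068 on replicates 3 and 4. In both tissues the sums of replicates 1 and 2 thus stood apart from those of replicates 3 and 4. The members are therefore given within each pair of replicates. Over all probes, Pearson's r of log2 intensity between arrays of a tissue was 0.839 to 0.97 within these pairs. Across them r was 0.822 to 0.903, so the ranges overlapped. The number of arrays limits the precision. In tissue RNA, fewer cells of a type and less RNA per cell cannot be told apart.

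The genes split by tissue. NdhS and AT1G76450 were brighter in root, AT1G54500 and PIFI were brighter in leaf, and NdhN was above 0 on few arrays. On the normalised log2 scale the root and leaf arrays did not overlap for 4 of the 5 genes, root lying above leaf for 2 and leaf above root for 2. Over all 3298 probes tested, the tissues did not overlap at 44.2%, made up of 22.2% with root above and 22.0% with leaf above. At a Benjamini-Hochberg adjusted p below 0.05 (limma), 20.1% of all tested probes were called higher in root and 22.1% lower in root. The same 4 genes were among these calls, 2 in each direction, and nothing is read from that count because this contrast was known when the genes were chosen.

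**Figure D1:**
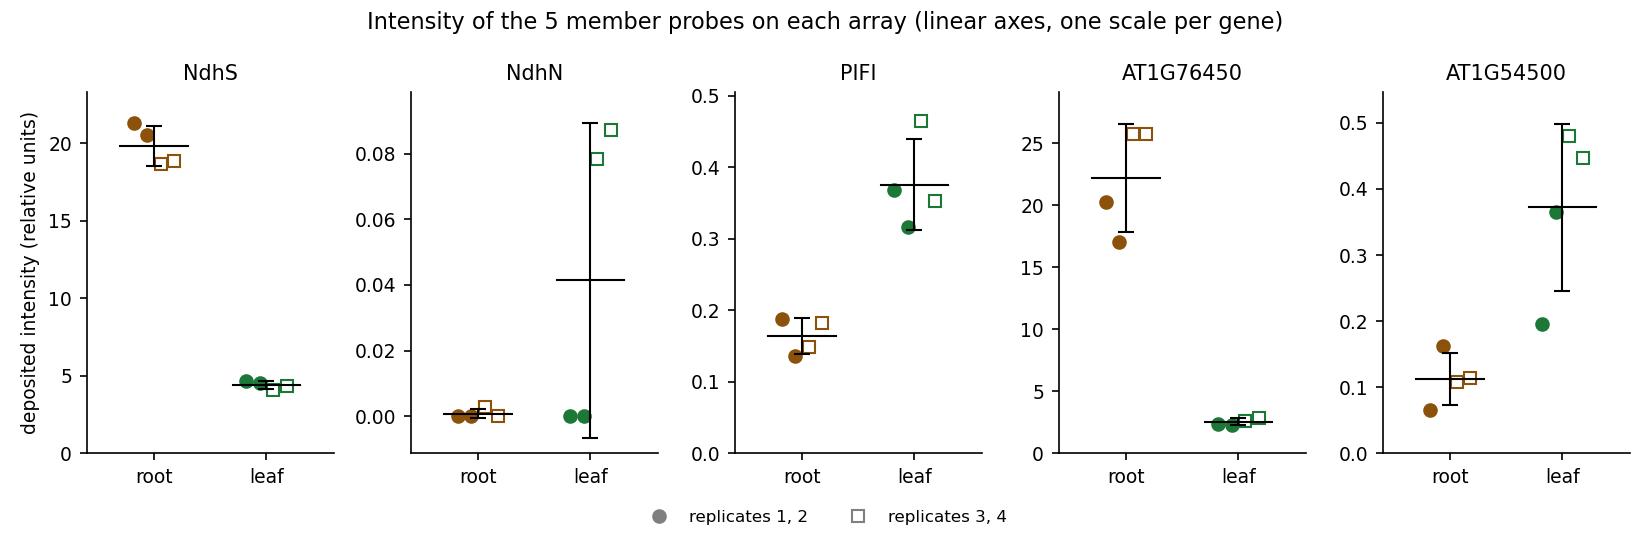
Deposited intensity (relative units, linear axes that differ between genes) of the 5 probes on each root and leaf array; points are arrays, filled for replicates 1 and 2 and open for replicates 3 and 4, and black lines are means ± SD (n = 4). The root arrays of NdhS (18.7 to 21.3) and AT1G76450 (17.0 to 25.8) lie above all leaf arrays, those of PIFI and AT1G54500 lie below, and NdhN is above 0.01 only on leaf replicates 3 and 4.

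NdhS lies in the stromal part of the NDH complex, where ferredoxin binds. It read 21.3, 20.5, 18.7 and 18.9 on root replicates 1 to 4, against 4.69, 4.53, 4.12 and 4.31 on leaf replicates 1 to 4. Every root array was at least 3.98 times as bright as the brightest leaf array. The means were 19.9 ± 1.29 in root and 4.41 ± 0.253 in leaf (SD, n = 4 each), a ratio of 4.50 in deposited intensity; after normalisation, root minus leaf was 2.57 ± 0.15 (SE) on the log2 scale. The ratio was 4.54 over replicates 1 and 2 and 4.46 over replicates 3 and 4. NdhS was the most even of the 5 genes between arrays: its within-tissue SD on the normalised log2 scale was 0.05, and 0.243% of the tested probes had a smaller value, against a median of 0.62 over all of them. That median includes dim probes, whereas NdhS lay at brightness percentile 99.4 in root and 97.1 in leaf. Whether it was more even than equally bright probes was not tested. On the deposited scale its coefficient of variation was 6.49% in root and 5.72% in leaf. The size of the difference followed the scaling between arrays, with 2.17 on the deposited intensities and 1.34 when arrays were centred on their medians; root was above leaf in both.

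NdhN is a further nuclear-encoded subunit, of the stromal arm that NdhS also joins. It was listed at 0 on root replicates 1, 2 and 4 and read 0.00271 on root replicate 3, which is under the floor of 0.00582 used for the log2 values. In leaf it was listed at 0 on replicates 1 and 2 and read 0.0783 and 0.0873 on replicates 3 and 4. The arrays of the tissues overlapped, and signal above the floor was present on 2 of 8 arrays, both of leaf. The fitted difference of -2.22 ± 1.16 (SE) is set in part by the floor and is no measure of a fold. It became -4.44 when values of 0 were set to missing, which leaves 1 root array, and -0.81 with an offset in place of the floor. The NdhN probe also has a number divisible by 6, and at such numbers 72.9% of all values in the series were listed at 0, against 13.1% at the other numbers. Of the 261 probes with such numbers, 20 were above 0 on all arrays. How probe numbers map onto the array is not given in the labels, and the part of this in the NdhN values was not tested, and its level in neither tissue can be read from this probe.

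PIFI encodes a plastid protein named for the rise in chlorophyll fluorescence after illumination, which depends on the NDH complex and follows non-photochemical reduction of plastoquinone. It read 0.188, 0.137, 0.148 and 0.182 on root replicates 1 to 4, against 0.369, 0.316, 0.465 and 0.352 on leaf replicates 1 to 4. The dimmest leaf array was 1.68 times as bright as the brightest root array. The means were 0.164 ± 0.0252 in root and 0.375 ± 0.0635 in leaf (SD, n = 4 each), so leaf was 2.29 times root, and the normalised log2 difference, root minus leaf, was -1.99 ± 0.23 (SE). On the deposited intensities the difference was -1.2. Within replicates 1 and 2 the deposited leaf mean was 2.11 times the root mean, and within replicates 3 and 4 it was 2.47 times.

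**Figure D2:**
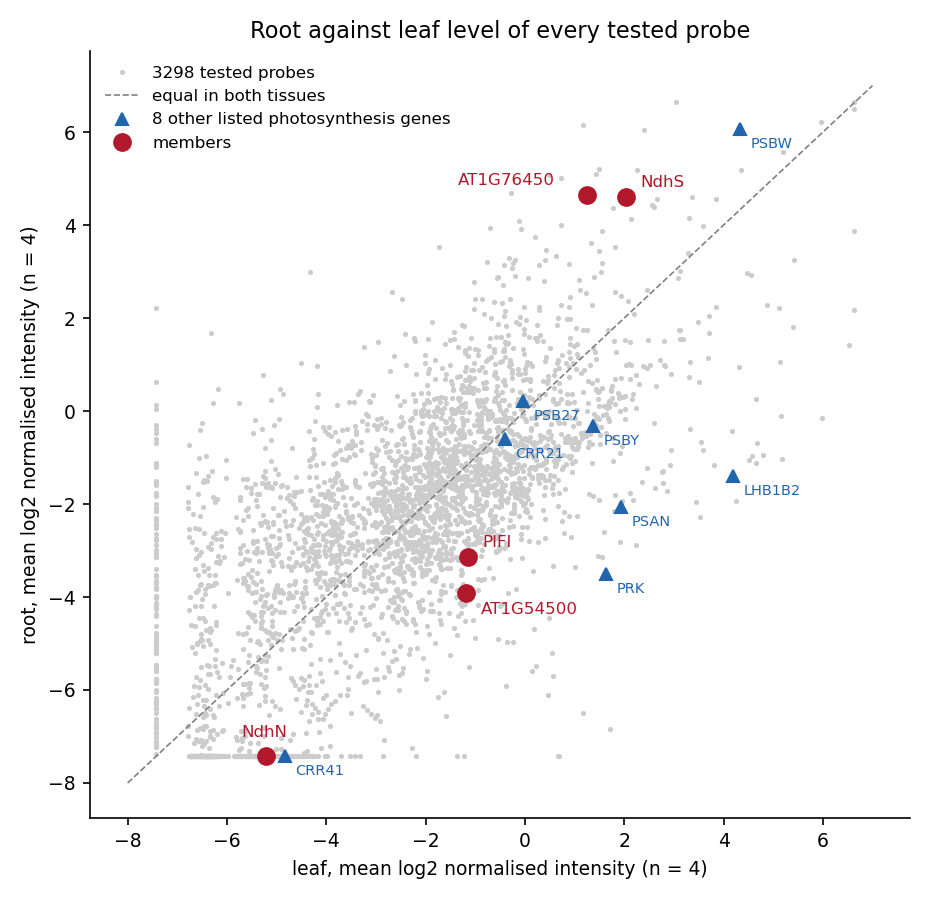
Mean log2 normalised intensity in root (vertical axis) against leaf (horizontal axis) for the 3298 tested probes (grey), the 5 genes described (red circles) and 8 other listed photosynthesis genes (blue triangles); the dashed line marks equal values. AT1G76450 and NdhS lie above the line, as does PSBW, while PIFI and AT1G54500 lie below it, and NdhN lies at the floor in root.

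AT1G76450 encodes a PsbP-domain protein, a family of the thylakoid lumen whose founding member belongs to the oxygen-evolving complex of photosystem II. It read 20.2, 17.0, 25.8 and 25.8 on root replicates 1 to 4, against 2.38, 2.26, 2.64 and 2.88 on leaf replicates 1 to 4. The dimmest root array was 5.90 times as bright as the brightest leaf array. The means were 22.2 ± 4.34 in root and 2.54 ± 0.278 in leaf (SD, n = 4 each), a ratio of 8.74, and the normalised log2 difference, root minus leaf, was 3.40 ± 0.24 (SE). Among the 4 genes with signal on every array this was the largest difference with quantile normalisation, but with median centring (2.28) it was smaller in size than that of AT1G54500 (-2.55). With quantile normalisation, 54 of the 662 tested single-gene probes had a larger difference towards root; for NdhS this number was 83. AT1G76450 was brighter on replicates 3 and 4 than on replicates 1 and 2 in both tissues, with means of 25.8 and 18.6 in root and of 2.76 and 2.32 in leaf, whereas NdhS was dimmer on replicates 3 and 4, with 18.8 and 20.9 in root and 4.21 and 4.61 in leaf. The arrays' sums were lower there too, and on the normalised log2 scale NdhS read 4.66, 4.54, 4.60 and 4.60 on root replicates 1 to 4, against 2.04, 1.97, 2.03 and 2.08 on leaf replicates 1 to 4, with no such step. The deposited ratio of root to leaf was 8.03 over replicates 1 and 2 and 9.34 over replicates 3 and 4.

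AT1G54500 encodes a rubredoxin-like protein, and rubredoxins are small iron-binding electron carriers. It read 0.0649, 0.162, 0.109 and 0.114 on root replicates 1 to 4, against 0.196, 0.365, 0.480 and 0.447 on leaf replicates 1 to 4. Replicate 1 was the dimmest array in both tissues. The groups did not overlap, but came close: the dimmest leaf array, replicate 1, was 1.21 times as bright as the brightest root array, replicate 2. The means were 0.112 ± 0.0396 in root and 0.372 ± 0.127 in leaf (SD, n = 4 each), so leaf was 3.31 times root, and the normalised log2 difference, root minus leaf, was -2.73 ± 0.40 (SE). On the deposited intensities the difference was -1.72. Leaf was 2.48 times root over replicates 1 and 2 and 4.17 times root over replicates 3 and 4. The within-tissue SD of 0.59 on the log2 scale was the highest among the 4 genes with signal on every array.

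The scaling between arrays moved the differences. The median log2 difference over all tested probes was 0.05 after quantile normalisation, 0.80 on the deposited intensities and -0.03 with median centring. Set against this median, NdhS lay 1.37 to 2.51 above it over the 4 scalings tried and AT1G76450 lay 2.31 to 3.35 above it. PIFI lay at -2.05 to -2 relative to the median and AT1G54500 at -2.78 to -2.53. Apart from quantile normalisation, the scalings differ only by a factor per array, which taking off the median removes. Above the floor their values then match by construction, so each range sets quantile normalisation against all the others. In that comparison PIFI and AT1G54500 differed little, while the differences of NdhS and AT1G76450 were larger with quantile normalisation.

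**Figure D3:**
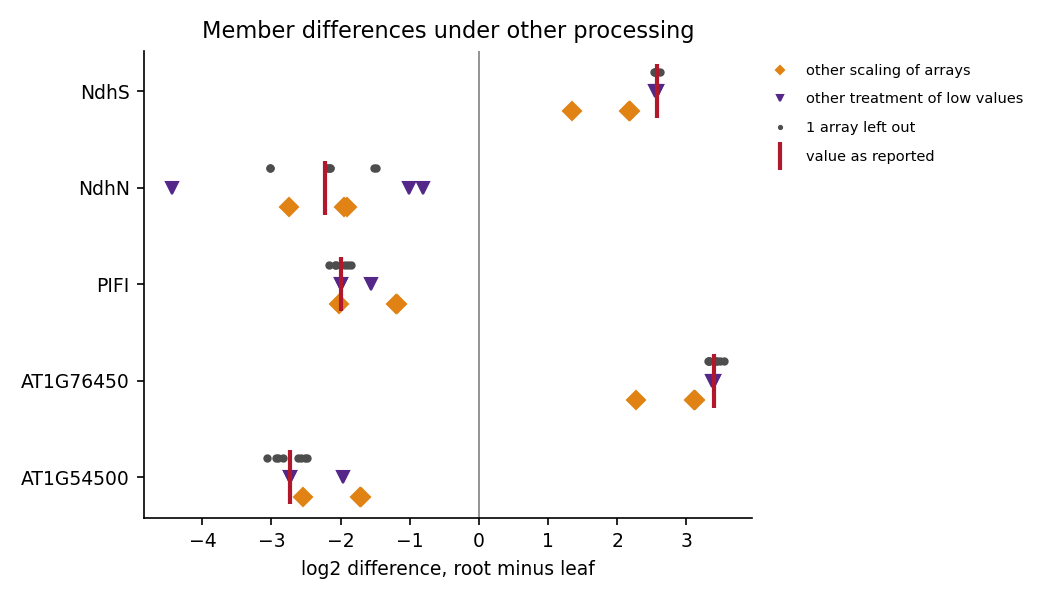
Log2 difference, root minus leaf, of each of the 5 probes as reported (red bar) and under other scalings of the arrays (diamonds), other treatments of low values (triangles) and with 1 array left out (dots). No value crossed 0; NdhN moved most with the treatment of low values, and NdhS and AT1G76450 moved most with the scaling.

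To place these genes among their pathway, 143 further genes on 12 lists were looked up, covering NDH subunits, NDH assembly and chlororespiration, the PsbP and rubredoxin families, electron carriers, both photosystems, the antenna, the Calvin cycle, root-type ferredoxin partners, mitochondrial complex I and root markers. Of these genes, 10 had a probe of their own. No probe named any of the other 18 listed NDH subunits, the 9 other PsbP family genes, the 2 other rubredoxin family genes or the 8 root markers. NdhS and NdhN are thus the only listed subunits of the complex that a probe names here, and the root label could not be checked against its markers. Of the 3439 probes, 1877 carry no gene name, and which genes they measure is not known here. Of the 8 tested single-gene probes for thylakoid and Calvin cycle genes, 1 was higher in root, 5 were lower and 2 did not pass (limma, adjusted p below 0.05 over all probes, where 42.2% were called), with a median log2 difference of -2.15 against 0.05 over all probes. Without the probe numbers divisible by 6, which takes CRR41 off the list, the median was -1.70.

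Among listed genes that serve the NDH complex, 2 had a probe of their own. CRR21, a pentatricopeptide protein that edits the plastid ndhD transcript, read 0.585, 0.712, 0.858 and 0.836 on root replicates 1 to 4, against 0.570, 0.541, 0.793 and 0.787 on leaf replicates 1 to 4. Root and leaf overlapped, and replicates 3 and 4 were brighter than replicates 1 and 2 in both tissues. The log2 difference was -0.19 ± 0.29 (SE; limma, adjusted p = 0.609), and it did not pass under any of 21 alternatives (-0.67 to 0.18; adjusted p = 0.0645 to 0.977 by limma). CRR41, an assembly factor of the stromal arm that holds NdhN, was listed at 0 on all 4 root arrays and read 0.0293, 0.0119, 0.0150 and 0 on leaf replicates 1 to 4. It was called lower in root (limma, adjusted p = 0.0347), but not when any 1 array other than leaf replicate 4 was left out (adjusted p = 0.0741 to 0.0788 by limma; 6.71e-05 to 0.396 over all alternatives). Its probe number is divisible by 6, as for NdhN, and the part of that in its values was not tested.

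Photosystem, antenna and Calvin cycle genes were taken as leaf mesophyll markers, and not all of those measured were brighter in leaf. SBPASE, a Calvin cycle enzyme, was listed at 0 on all 8 arrays, so its probe was not tested and gives no comparison of the tissues. Rubisco activase was measured on probes shared by RCA and AT1G73110, of which the brighter averaged 0.350 ± 0.0591 in root and 0.192 ± 0.0921 in leaf (SD, n = 4 each). After normalisation the arrays of this brighter probe overlapped, and its log2 difference was 0.16 ± 0.29 (SE). That difference was 0.69 on replicates 1 and 2 alone and -0.34 on replicates 3 and 4 alone. Neither of these RCA probes passed the test (limma, adjusted p = 0.680 and 0.924). In contrast, an antenna probe shared within the LHCB4 family averaged 0.0428 ± 0.0345 in root and 0.679 ± 0.087 in leaf (SD, n = 4 each). This LHCB4 probe was lower in root (-5.52 ± 0.625, SE; limma, adjusted p = 3.14e-04), and so it was under all 21 alternatives. It was listed at 0 on root replicate 4, and its values cannot be assigned to 1 gene. LHB1B2 of the antenna, PSAN of photosystem I, PSBY of photosystem II and the Calvin cycle gene PRK were lower in root (limma, adjusted p between 2.78e-06 and 5.11e-04), with log2 differences between -5.60 and -1.70. AT1G54500, at -2.73, lay within this range. PIFI, at -1.99, did so in the main fit but not under every alternative. It was smaller in size than PSBY as deposited (-1.2 against -1.67), with a common mean intensity (-1.18 against -1.65), with median centring (-2.03 against -2.50) and with an offset (-1.56 against -1.63). PSBW, a small photosystem II subunit, was higher in root, at 63.2 to 82.6 on the root arrays against 23.8 to 26.8 on the leaf arrays (log2 difference 1.72 ± 0.26, SE; limma, adjusted p = 0.00137). It was called higher in root under all 21 alternatives (0.66 to 2.03), but the size followed the scaling. With median centring the PSBW difference was 0.66 (limma, adjusted p = 0.0383). NdhS and AT1G76450, at 2.57 and 3.40, thus shared their direction with PSBW and with none of the other listed photosynthesis genes that passed. PSB27, a lumenal factor of photosystem II assembly and repair, read 1.76, 2.05, 1.01 and 0.549 on root replicates 1 to 4, against 1.44, 1.55, 0.973 and 0.353 on leaf replicates 1 to 4. Its spread lay between replicates rather than tissues, and it did not pass (0.25 ± 0.54, SE; limma, adjusted p = 0.733).

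**Figure D4:**
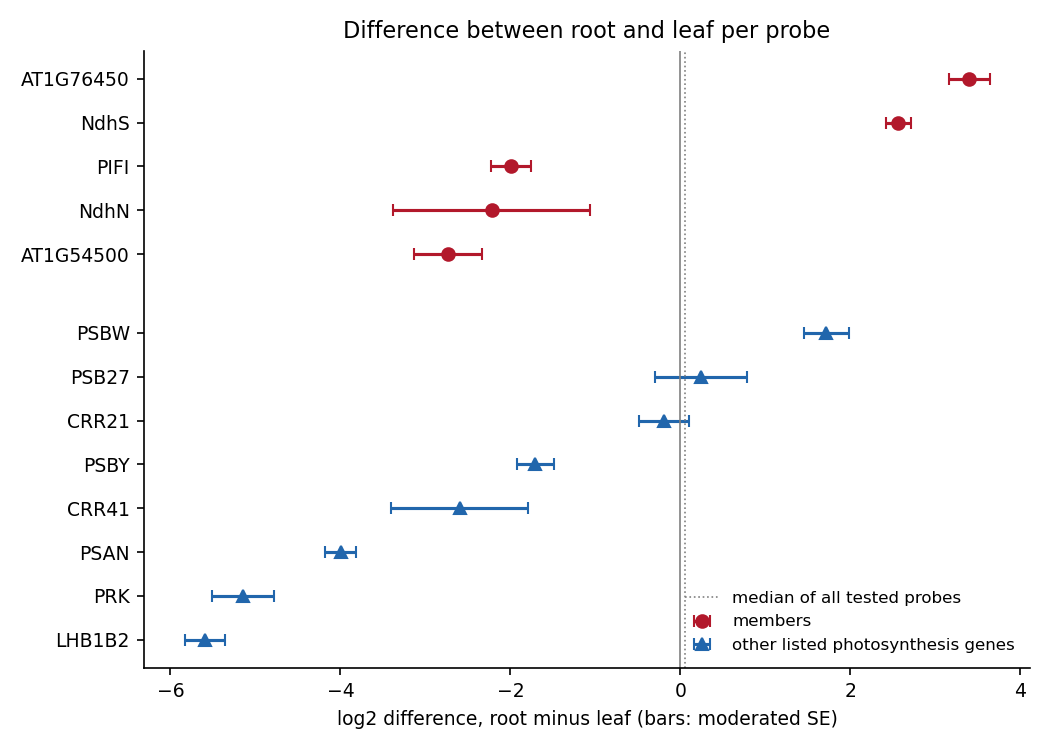
Log2 difference, root minus leaf, with limma's moderated SE for the 5 genes described (red circles) and the 8 other listed photosynthesis genes with a tested probe of their own (blue triangles); the dotted line is the median of all tested probes, 0.05. NdhS, AT1G76450 and PSBW lie to the right of 0 beyond their SE, and LHB1B2 lies farthest to the left at -5.60.

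Electron carriers were measured only on probes shared with other genes. The probe named for AT2G26500, a small subunit of the cytochrome b6f complex, and AT5G35660 read 0.352 to 1.11 on the root arrays, against 7.15 to 11.7 on the leaf arrays, and was lower in root (-3.78 ± 0.37, SE; limma, adjusted p = 1.65e-04). The probe shared by ATPC1 and ATPC2, the gamma subunit genes of the plastid ATP synthase, was also lower in root, at 0.524 to 0.825 against 1.13 to 1.2 in leaf (-1.11 ± 0.16, SE; limma, adjusted p = 0.00111). These values cannot be assigned to 1 gene of each pair. Mitochondrial complex I, to which the NDH complex is related, had a probe for 1 of its 9 listed genes, AT4G02580. That probe read 0.519 to 1.34 in root and had no leaf array above 0 (limma, adjusted p = 4.43e-06). Its difference is set in part by the floor, at 7.04 in the main fit and 3.8 with an offset. Leaf arrays also listed more of all probes at 0, 20% to 22.8% against 12.8% to 15.1% in root. This probe does not stand for the whole complex, and whether its leaf values of 0 come from the gene or the probe was not tested.

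The single-gene probes whose profile over the 8 arrays was most like that of each gene were found by Pearson's r of the normalised log2 values, among probes above the floor on every array. With the tissues this far apart, r mostly reflects the tissue difference, and the arrays share their scaling, so the values are descriptions. NdhS was most like AT4G39690 (r = 0.999) and AT2G46220 (r = 0.998), which read 12.5 ± 2.04 in root and 3.18 ± 0.133 in leaf (SD, n = 4 each). AT1G76450 was most like CCL (AT3G26740; r = 0.996) and AT4G18180 (r = 0.996). PIFI was most like AT3G47650 (BSD2, a factor of Rubisco assembly), at 0.353 ± 0.0608 in root and 2.78 ± 0.253 in leaf (r = 0.989), and AT4G30150 (r = 0.989). AT1G54500 was most like AT3G32930 (r = 0.975) and PRA1.B6 (AT5G07110; r = 0.968). For NdhN, AT1G74070 (r = 0.966) and AT1G13370 (r = 0.891) ranked first, and as 6 of its 8 values are at the floor, these rest on leaf replicates 3 and 4.

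Among themselves, NdhS and AT1G76450 followed each other over the 8 arrays (r = 0.991), and PIFI and AT1G54500 likewise (r = 0.888). After each tissue's mean was taken off, r was 0.553 for NdhS with AT1G76450 and -0.248 for PIFI with AT1G54500 over the same 8 arrays. AT1G76450 then had a higher r with PIFI (0.644) than with NdhS, so the 0.553 is not particular to that pair. Its r with NdhN (0.611) rests on leaf replicates 3 and 4, the only arrays with NdhN above the floor. The likeness of PIFI and AT1G54500 was seen in the tissue difference and not in how the arrays of a tissue differed. For the latter, 8 arrays are too few to tell a weak likeness from none.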

How the data were processed

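Total RNA of 4 root and 4 leaf samples was measured on arrays, and the titles of the samples gave groups and replicate numbers. The deposited values are intensities per spot on a linear relative scale; how the authors made these intensity values (background correction, scaling) is not given in the sources used here. Genes were named by the platform annotation, joined by probe number, and by the RefSeq gene table of assembly TAIR10.1 (690 of 692 single-gene probes matched a locus); this naming could not be checked against probe sequences, and no coordinates are printed, as no build is named for the values. 870 probes named several genes.

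Arrays were brought to the same quantiles, values under 0.00582 (percentile 1 of the positive deposited values) were raised to it, and log2 was taken; 141 probes without any value above this floor were dropped. Root was compared with leaf over all 3298 remaining probes with limma 3.58.1 in R 4.3.3 (lmFit and eBayes, two-sided, Benjamini-Hochberg threshold 0.05), and the script was tested on simulated data. The genes and lists were chosen with earlier results of these data known. Named were the 5 genes, listed genes on probes of their own that passed, NDH, PsbP and rubredoxin genes that did not, and the 2 most similar single-gene probes per gene; PSB27 and the shared probes were added after their values were seen. Alternatives covered scaling, floor, dim probes, a replicate block, the variance model, left-out arrays and pairs of replicates; leaving out probe numbers divisible by 6 was added after the data were seen. Figures used matplotlib 3.10.9.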

Additional observations from a re-analysis of the deposited data

Results flagged for a closer look

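Of 36 groups of 4 arrays examined among the described and listed probes, 2 held an array far from the others; chance gives about 1 in 20. The NdhN probe read 0.00271 on root replicate 3 and was listed at 0 on the other root arrays. A probe shared by RCA and AT1G73110 read 0.02 on leaf replicate 3 and was listed at 0 on the other leaf arrays. Both probes have a number divisible by 6, and both groups stand out because all other values are 0.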

How the results depend on the processing

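No difference of the 5 genes changed sign under any alternative that gave a value. Leaving out 1 array at a time gave 2.53 to 2.62 for NdhS, 3.31 to 3.55 for AT1G76450, -2.17 to -1.85 for PIFI, -3.06 to -2.48 for AT1G54500 and -3.02 to -1.49 for NdhN. On the deposited intensities NdhS was 2.17, PIFI -1.2 and AT1G54500 -1.72, and with a common mean intensity 2.19, -1.18 and -1.70. Median centring gave 1.34 for NdhS and 2.28 for AT1G76450. With an offset PIFI was -1.56 and AT1G54500 -1.97. NdhN was -4.44 with values of 0 missing and -4.40 on replicates 3 and 4 alone; it gave no value on replicates 1 and 2 alone, without the dimmest 25% of probes or without probe numbers divisible by 6. NdhS was 2.51 on replicates 1 and 2 alone.

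Probes called higher in root numbered 664, but 1138 on the deposited intensities and 1154 with a common mean, where root took 69.8% of the calls instead of 47.7%; with 1 array left out they numbered 550 to 647, and those called lower in root 656 to 670. The median of the listed genes, -2.15, was -1.42 as deposited, -1.40 with a common mean, -1.24 with a floor at the 5th percentile, -1.22 with an offset, and -1.70 with values of 0 missing, without the dimmest probes, without probe numbers divisible by 6 (each of which drops CRR41) or with shared probes. It was -2.75 on replicates 1 and 2, -1.55 on replicates 3 and 4 and -2.62 to -1.98 with 1 array left out. Listed genes lower in root numbered 5, 8 with shared probes and 4 to 5 with 1 array left out.

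With a replicate block, NdhS was 2.57 and 596 probes were called higher and 648 lower in root; CRR41 was no longer called (limma, adjusted p = 0.0575). Deviations of arrays with the same number correlated at 0.09 to 0.126, each array best with its own number, which is a hint and no pairing by design. Array number and probes at or near 0 limit precision.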
